A study of Mus musculus with 16 samples.

Results

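Transcription factors known from tooth mesenchyme, though not all confined to it, were represented by 10 genes of the 23337 genes in the deposited count tables. They were followed through 16 libraries of mouse first molar germs. They were taken as a fixed list: Msx1, Msx2, Pax9, Lhx6, Lhx8, Barx1, Runx2, Prrx1, Prrx2 and Twist1. The list names the genes and sets no cut on a measured value, but it was chosen with earlier results of these data known. All 10 were among the 16287 genes that passed the filter on low counts. The germs came from wild-type (WT) embryos of the outbred CD1 strain, which the labels give as male, at 8 labelled embryonic days (ED), from ED14.5 to ED18.0 in steps of 0.5 day. By the labels, at each stage 1 embryo gave 1 library labelled upper and 1 labelled lower, each made from its left and right germs together. The design therefore has 8 libraries per tooth label and 1 library per label and stage, and an embryo cannot be told apart from its stage. Poly(A) RNA of whole germs was sequenced as 100 bp read pairs, so each library held epithelium and mesenchyme.

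A molar germ forms from oral epithelium and from mesenchyme that the neural crest supplies. The epithelium starts the tooth, and the mesenchyme then takes over the instructive role and carries it through cusp formation. Msx1, Msx2 and Pax9 are central to that exchange, because their products work in a loop with Bmp4, and molars arrest early in mice without Msx1 or Pax9. Lhx6, Lhx8 and Barx1 mark the oral and proximal mesenchyme of the jaw arches, where molars form, whereas Runx2, Prrx1, Prrx2 and Twist1 act widely in craniofacial and skeletal mesenchyme.

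The label of a library was not always matched by its content, which bears on every comparison below. Pou3f3, a gene of the upper jaw, stood between 109.5 and 131.5 CPM (reads of a gene scaled to the gene total of its library) in the 4 libraries labelled upper from ED15.0, ED16.0, ED17.0 and ED18.0, and between 6.4 and 10.1 CPM in the 4 from ED14.5, ED15.5, ED16.5 and ED17.5. In the libraries labelled lower the same stages stood at 60.1 to 86.2 CPM and 4.4 to 5.5 CPM. These are called whole-day and half-day stages here, 4 of each in either label. The split follows the labelled stage, but it was drawn because Pou3f3 and other jaw genes were known to follow it. Among these, Nkx2-3 went the other way. It stood at 39.4 to 56.2 CPM at half-day and 0 to 0.09 CPM at whole-day stages in the label upper. In the label lower it stood at 19.2 to 31.5 CPM and 0 to 0.11 CPM. A difference between the stage sets is therefore also one between libraries high in Pou3f3 and libraries high in Nkx2-3. Xist was at 432 to 1928 CPM and Uty, Kdm5d and Eif2s3y, which lie on the Y chromosome, at 0 in all 16 libraries, against the label male. Ddx3y, also on the Y chromosome, was at 0.045 CPM in the library labelled lower from ED15.0 and at 0 in every other library. The lowest Xist (432 and 542 CPM) was in the libraries labelled lower from ED14.5 and ED15.0. The libraries labelled upper of the same embryos held 1664 and 1739 CPM of Xist. The labels of tooth, stage and embryo may therefore be wrong for some libraries, a difference between tooth labels cannot be told apart from one of stage, and embryos are counted below only as labelled. Flow cell and tooth label coincided in the deposited names and cannot be told apart, and a change of lane separated the first 4 from the last 4 stages in both labels. Directions below therefore compare libraries as labelled. Totals ran from 33146758 to 44565205 reads counted in genes, and 0 of 120 library pairs held identical counts.

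**Figure D1:**
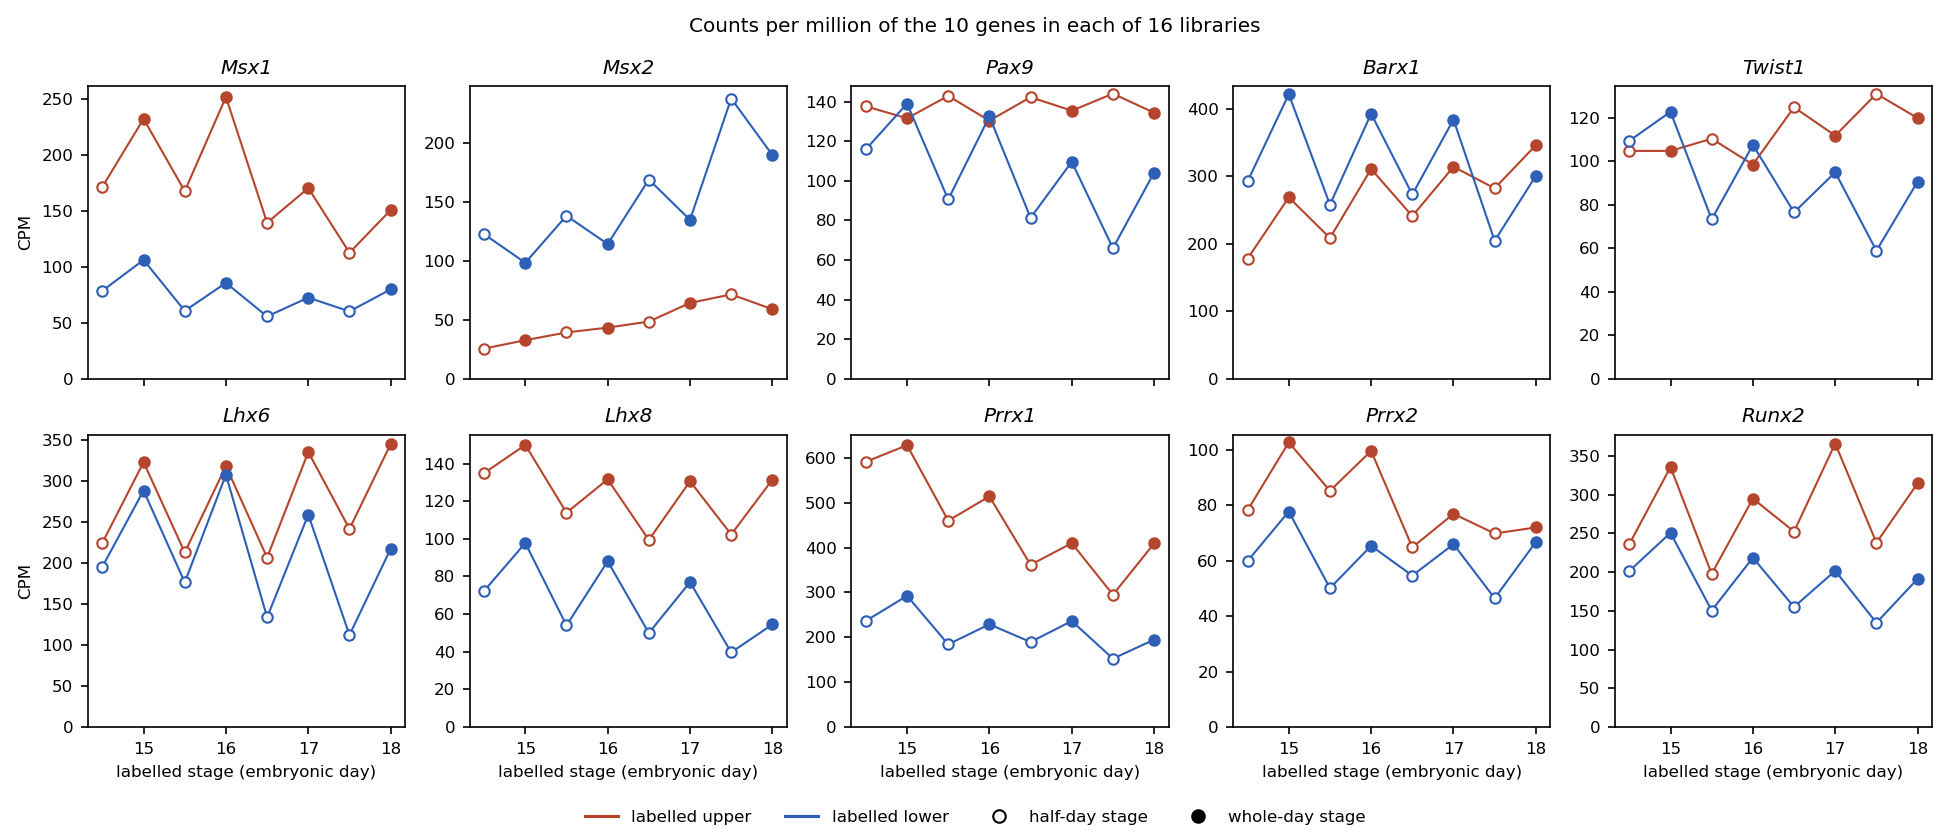
CPM of the 10 genes (y axis, from 0, own scale in each panel) at each labelled embryonic day (x axis) in the 8 libraries labelled upper (red) and the 8 labelled lower (blue). Open points are half-day and filled points whole-day stages, and in the libraries labelled lower 9 of the 10 genes are higher at every filled point than at its open neighbours.

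The lowest value of any of the 10 genes in any library was the 25.5 CPM of Msx2. Per kilobase of annotated exon, Barx1 stood highest, with a mean of 192 CPM in libraries labelled upper and 226 CPM in those labelled lower. Twist1, Lhx6 and Msx1 came next in the libraries labelled upper at 69.6, 57.5 and 56.4 CPM per kilobase. Msx2 was the lowest of the 10 there at 14.6 CPM per kilobase, but stood at 46.0 in the libraries labelled lower, where Barx1 and Twist1 alone were above it. Because the germs were measured whole, the tissue that held a gene's RNA cannot be read from any value below. Fewer cells with the RNA and less RNA per cell cannot be told apart either.

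The first comparison asked whether the genes differed between the tooth labels across the 8 stages. Of the 10 genes, 6 were higher in the libraries labelled upper (Msx1, Prrx1, Lhx8, Runx2, Pax9 and Prrx2), 1 was higher in those labelled lower (Msx2), and 3 did not pass the test (Lhx6, Twist1 and Barx1). Adjusted p-values come from the quasi-likelihood test of edgeR, corrected by Benjamini-Hochberg over all 16287 genes, with a threshold of 0.05 and a curve for stage in the model. Of all genes tested, 18.1% were called higher and 18.1% lower. The median difference of the 10 genes was 0.41 on the log2 scale, against 0.01 for all genes.

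Msx1 and Msx2 encode homeodomain repressors that respond to Bmp signals, and they lay on opposite sides. Msx1 (chr5:37820485-37824583, minus strand, build GRCm38) ranged from 112.6 to 252.1 CPM in the libraries labelled upper, with a median of 169.2 and a mean of 174.7 ± 46.4 (SD, n = 8). In the libraries labelled lower it ranged from 55.6 to 106.2 CPM, with a median of 75.5 and a mean of 74.9 ± 16.6 (SD, n = 8). The ranges did not overlap, and the library labelled upper was the higher in 8 of 8 embryos. The fitted difference was 1.22 ± 0.14 (SE) on the log2 scale, or 2.32-fold (adjusted p = 2.54e-05). Msx2 (chr13:53466884-53473074, minus strand) ranged from 25.5 to 71.5 CPM with a median of 45.9 under the label upper, and from 98.4 to 238.1 CPM with a median of 136.7 in those labelled lower. Again no library of one label reached the other, now with the label lower above in all 8 embryos. Msx2 was 3.20-fold lower in the libraries labelled upper, a difference of -1.68 ± 0.12 (SE, adjusted p = 2.66e-07). Non-overlapping labels with upper above were found for 3 of the 10 genes and 2.89% of all genes, and with lower above for 1 of the 10 and 3.52% of all.

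The Msx1 locus also holds an antisense transcript, named Msx1as in the tables, which lies inside the gene over 2188 bases. Msx1as lay between 24.8 and 48.9 CPM under the label upper and between 9.1 and 22.6 CPM under the label lower. The Truseq V2 kit named in the labels does not mark strand, so reads of the pair cannot be told apart where both are exonic. Across the 16 libraries Msx1as was also the gene most like Msx1 (Pearson's r = 0.98 of log2 CPM, n = 16, libraries sharing label and stage). The 250 bases before the Msx1 start in RefSeq (GRCm38.p6, chr5:37824586-37824835, minus strand, 68.0% G or C) are shown because they lie outside the annotated models of the gene and its antisense partner, with CCAAT boxes of either strand in capitals:
Msx1 promoter: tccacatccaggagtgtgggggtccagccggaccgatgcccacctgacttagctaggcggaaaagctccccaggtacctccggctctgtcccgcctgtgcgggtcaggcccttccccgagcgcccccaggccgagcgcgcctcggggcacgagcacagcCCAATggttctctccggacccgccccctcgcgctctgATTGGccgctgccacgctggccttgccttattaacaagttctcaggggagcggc
A CCAAT box on either strand was present in the 250-base windows of 4 of the 10 genes (Msx1, Msx2, Lhx6 and Twist1) and in 33.9% of all 32851 RefSeq windows. The homeodomain core TAATTA was present in those of Msx2 and Prrx1, against 4.84% of all windows, and the Runx core TGTGGT in that of Runx2, against 14.1%. These matches are descriptions of the letters only.

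**Figure D2:**
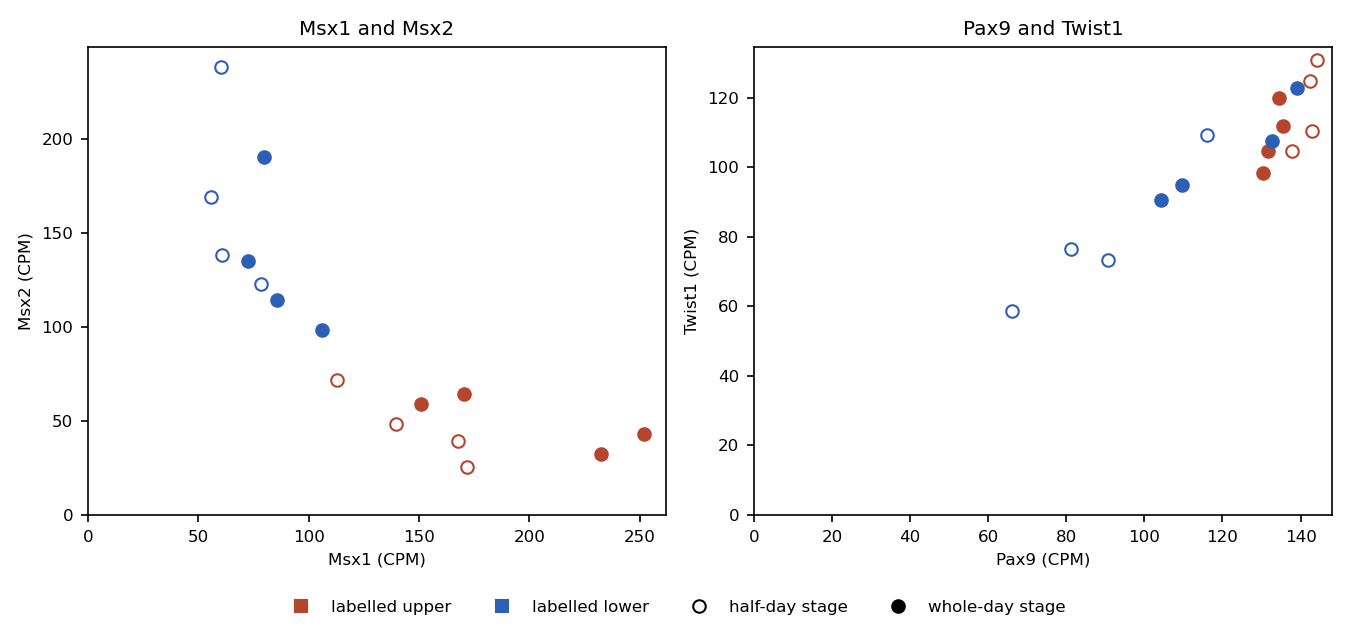
CPM of Msx1 against Msx2 (left) and of Pax9 against Twist1 (right), 1 point per library, axes from 0, red for libraries labelled upper, blue for lower, filled for whole-day stages. All 8 red points lie at 112.6 CPM or more of Msx1 and 71.5 CPM or less of Msx2, and all 8 blue points at 106.2 CPM or less of Msx1 and 98.4 CPM or more of Msx2.

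Pax9 (chr12:56691767-56712822, plus strand), a paired-box activator of Msx1 and Bmp4, was nearly level in the libraries labelled upper, from 130.5 to 144.1 CPM with a mean of 137.5 ± 5.3 (SD, n = 8). In those labelled lower it ran from 66.0 to 139.1 CPM with a mean of 105.0 ± 25.0 (SD, n = 8), so that the labels overlapped. It was 1.33-fold higher in the libraries labelled upper (0.41 ± 0.12 SE on the log2 scale, adjusted p = 0.0146), in 6 of 8 embryos, with the label lower above at ED15.0 and ED16.0. Leaving out 1 embryo at a time gave an adjusted p of at most 0.0476. The neighbouring gene Slc25a21 overlaps the end of Pax9 by 191 bases on the other strand and was the most like it over the 16 libraries (r = 0.95), at 6.0 to 12.8 CPM.

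The LIM-homeodomain genes Lhx6 and Lhx8 act downstream of Fgf signals in the arch mesenchyme, and the fit placed them differently. Lhx8 (chr3:154306294-154330659, minus strand) lay between 99.4 and 149.9 CPM, median 131.0, under the label upper and between 39.7 and 97.8 CPM, median 63.5, under the label lower. The labels did not overlap, and the difference was 0.92 ± 0.15 (SE) on the log2 scale, or 1.89-fold (adjusted p = 0.000331). Lhx6 (chr2:36081953-36105408, minus strand) ran from 206.8 to 345.3 CPM and from 112.3 to 307.9 CPM in the same groups. Its labels overlapped although the library labelled upper was the higher in 8 of 8 embryos, and the difference of 0.40 ± 0.20 (SE) did not pass (adjusted p = 0.144). With the labelled embryo as a block, which sets each upper library against the lower library of the same labelled stage, Lhx6 passed at 0.44 ± 0.10 (SE, adjusted p = 0.00637). This block is also the labelled stage, so it takes up the stage sets. Lhx6 also passed with the stage set as a term in the fit (0.43 on the log2 scale, adjusted p = 0.00188). Barx1 (chr13:48662998-48666507, plus strand), a homeobox gene of molar-forming mesenchyme, was the only other member besides Msx2 with a higher mean in the libraries labelled lower, 315.6 ± 75.7 against 268.4 ± 56.9 CPM (SD, n = 8 each). Its difference of -0.24 ± 0.16 (SE) did not pass (adjusted p = 0.259), and the library labelled upper was the higher in 2 embryos of 8.

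The Prrx genes encode paired-related homeodomain factors of undifferentiated mesenchyme. Prrx1 (chr1:163245119-163313710, minus strand) lay between 295.0 and 628.2 CPM, median 434.9, under the label upper and between 152.5 and 292.5 CPM, median 211.9, under the label lower. The labels did not overlap, and Prrx1 was 2.12-fold higher in the libraries labelled upper (1.08 ± 0.11 SE, adjusted p = 7.35e-06). Prrx2 (chr2:30834972-30881251, plus strand) differed less, with means of 81.1 ± 13.8 and 60.9 ± 10.2 CPM (SD, n = 8 each), overlapping ranges and a 1.33-fold difference (0.41 ± 0.10 SE, adjusted p = 0.00709). Runx2 (chr17:44495987-44814797, minus strand), the factor required for bone formation and active in dental mesenchyme, had means of 279.3 ± 57.5 and 187.9 ± 38.9 CPM (SD, n = 8 each). It was 1.5-fold higher in the libraries labelled upper (0.58 ± 0.15 SE, adjusted p = 0.00729), as it was in 8 of 8 embryos, though the ranges overlapped. Twist1 (chr12:33957671-33959829, plus strand), a basic helix-loop-helix factor that binds Runx2, had means of 113.3 ± 11.1 and 91.8 ± 21.4 CPM (SD, n = 8 each). Its difference of 0.32 ± 0.13 (SE) did not pass (adjusted p = 0.0633), but did with DESeq2 (adjusted p = 0.0356), without the embryo of ED15.0 (adjusted p = 0.0316), with the stage set as a term (adjusted p = 0.0393) and with a straight line for stage (adjusted p = 0.0473). Without the 2 libraries labelled lower with the lowest Xist, an alternative added after seeing the data, the difference was 0.48 on the log2 scale (adjusted p = 0.0102).

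Genes related to the 10, or acting with them, were spread in both directions, as were all genes tested (18.1% called higher and 18.1% lower). Of 10 tested relatives, 3 were higher and 2 lower in the libraries labelled upper, with a median difference of 0.01. Pax1, the closest relative of Pax9, was called higher (adjusted p = 0.000392) but stood near the floor, at 0.735 CPM or less in the libraries labelled upper and at 0 in 6 of the 8 labelled lower, so no fold is given. Runx3 was at 9.1 to 14.3 CPM against 21.1 to 34.6 CPM, a difference of -1.25 ± 0.09 (SE, adjusted p = 2.66e-07). Of 13 protein partners 5 were higher and 6 lower (median 0.01). Among the latter was Id4, an inhibitor in the helix-loop-helix family (-1.04 ± 0.05 SE, adjusted p = 2.04e-08). Osr2, which acts against Msx1 in tooth placement, was higher (0.44 ± 0.10 SE, adjusted p = 0.00468). Of 12 mesenchymal signals and response genes 4 were higher and 6 lower (median -0.13). The highest of these was Dkk2 at 1.82 ± 0.10 (SE, adjusted p = 6.6e-08) and the lowest Fgf3 at -1.29 ± 0.21 (SE, adjusted p = 0.000347). Bmp4, the partner of Msx1 and Pax9 in the loop above, was at 0.40 ± 0.06 (SE, adjusted p = 0.000131). It was named after its value was seen. Of 10 general mesenchyme genes 2 were higher and 2 lower (median 0.01), and their summed level lay between 7097 and 10331 CPM under the label upper and between 6641 and 8691 CPM under the label lower. The enamel knot list, an epithelial signalling centre, stood at 309 to 547 CPM against 674 to 1266 CPM, with 9 of 10 genes lower in the libraries labelled upper (median -0.82). Msx2, at -1.68, lay on the same side as that list, and whether its RNA was epithelial or mesenchymal was not tested. Of 10 dental epithelium genes 2 were higher and 4 lower (median -0.15), and of 9 bone genes 2 were higher and 2 lower (median -0.23). The part of these lists in the members' differences was not tested.

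The second comparison asked whether the genes changed with labelled stage inside each label. In the libraries labelled upper, 1 gene rose and 1 fell with stage, against 3.72% rising and 2.41% falling of all genes. Msx2 rose from 25.5 CPM at ED14.5 through 32.6, 39.2, 43.3, 48.4 and 64.3 to 71.5 CPM at ED17.5, and stood at 59.0 CPM at ED18.0. Its slope was 0.39 ± 0.05 (SE) per day on the log2 scale (adjusted p = 0.00452). Prrx1 fell from 591.3 and 628.2 CPM at the first 2 stages to 295.0 and 409.3 CPM at the last 2, a slope of -0.24 ± 0.06 (SE, adjusted p = 0.0416). The Prrx1 call was lost on leaving out any one of the first 7 stages (adjusted p from 0.0501 to 0.167). Both calls were lost when the lane was added to the fit, where Msx2 had a slope of 0.36 ± 0.10 (SE, adjusted p = 0.313) and Prrx1 of -0.09 ± 0.11 (SE, adjusted p = 0.806). Lane and stage order overlap strongly in this design.

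In the libraries labelled lower 0 of the 10 genes passed edgeR's quasi-likelihood test for a slope, against 2.63% rising and 1.49% falling of all genes. At an unadjusted p under 0.05 the count was 1, Msx2, with 0.28 ± 0.07 (SE, adjusted p = 0.0594), which DESeq2 called (adjusted p = 0.00238). Among all 16287 genes in this label, 1851 rose and 1759 fell at that unadjusted p, and DESeq2 called 1014 rising and 785 falling. Msx2 values there were 122.7, 98.4, 138.4, 114.3, 169.2, 134.9, 238.1 and 190.0 CPM from ED14.5 to ED18.0. Slopes were also compared between the labels, where 0 of the 10 genes passed edgeR's test (0.682% of all genes had the higher slope in the label upper and 0.577% the lower). At an unadjusted p under 0.05 there were 2, Barx1 and Twist1, both with the higher slope in the label upper. Among all 16287 genes, 1215 were higher and 1085 lower at that p. DESeq2 called 0 of the 10, and 324 higher and 290 lower of all genes. With the embryo as a block, the slopes of Barx1 (0.29 ± 0.05 SE higher in the label upper, adjusted p = 0.0182) and Runx2 (0.16 ± 0.03 SE, adjusted p = 0.031) passed.

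The zigzag between whole-day and half-day stages was part of the scatter about these slopes. Once the stage set was a term in the fit, 3 genes rose and 4 fell with stage in the libraries labelled upper (7.68% and 5.53% of all genes). Msx2, Barx1 and Twist1 rose, and Prrx1, Msx1, Lhx8 and Prrx2 fell, with slopes from 0.40 for Msx2 to -0.28 for Prrx1. In the libraries labelled lower, 1 gene rose (Msx2, 0.32 ± 0.03 SE, adjusted p = 0.000317) and 7 fell, against 6.85% and 4.14% of all genes. The 7 were Lhx8, Lhx6, Twist1, Pax9, Prrx1, Runx2 and Barx1, with slopes from -0.27 for Lhx8 to -0.14 for Barx1. Slopes then differed between the labels for 5 of the 10 genes, all higher in the label upper (3.16% higher and 2.66% lower of all genes). These were Barx1 (0.31 ± 0.04 SE, adjusted p = 0.000629), Twist1 (0.30 ± 0.04 SE), Lhx6 (0.24 ± 0.04 SE), Pax9 (0.22 ± 0.03 SE) and Lhx8 (0.17 ± 0.04 SE). Twist1 and Barx1 rose with stage in one label and fell in the other.

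**Figure D3:**
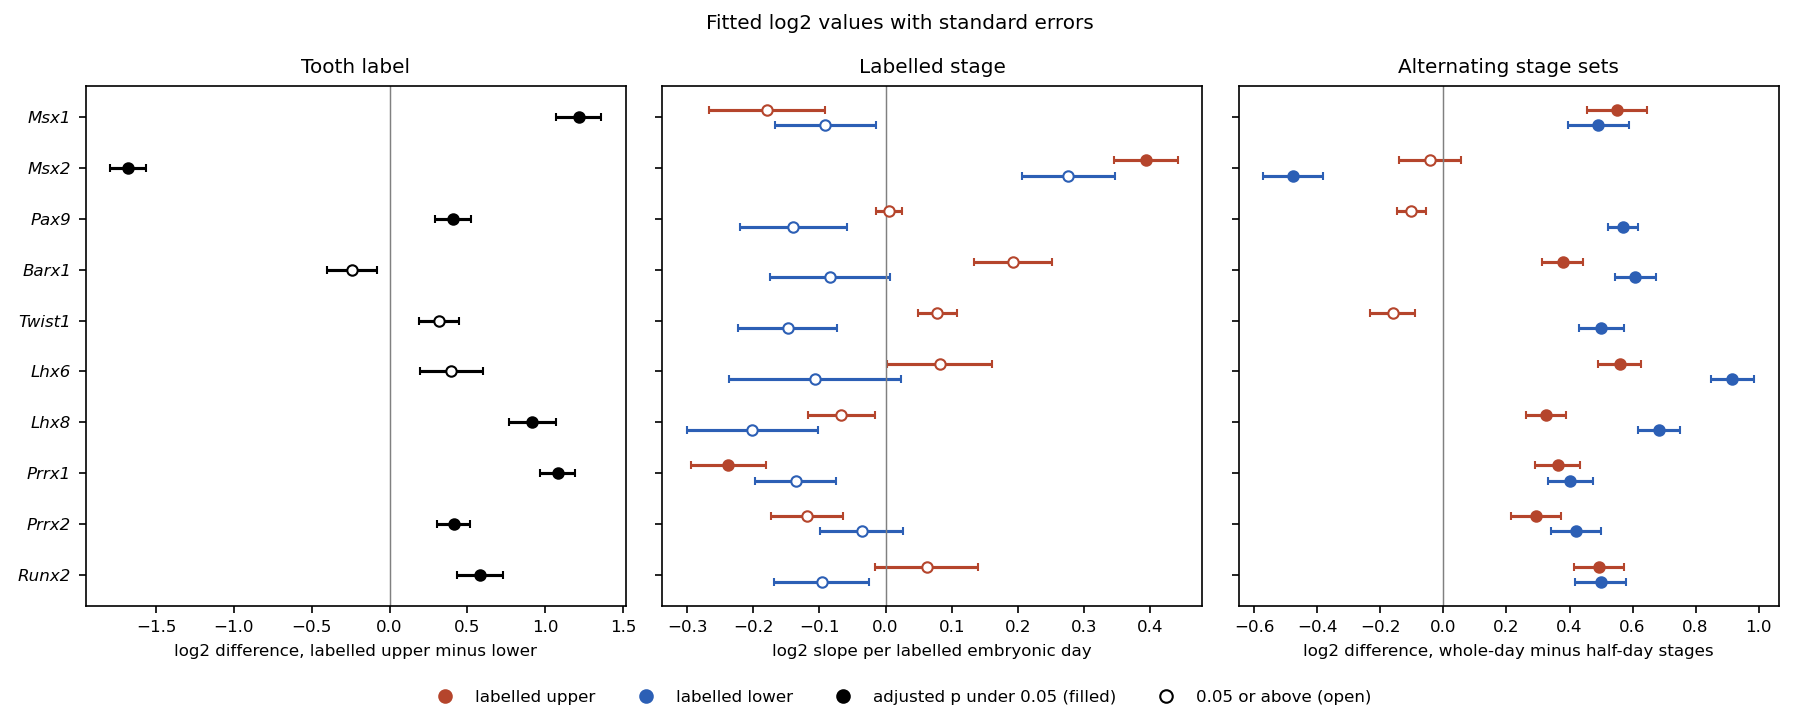
Fitted log2 values with standard errors for the 10 genes: labelled upper minus labelled lower (left), slope per labelled embryonic day (middle) and whole-day minus half-day stages (right), with red for libraries labelled upper and blue for lower. Filled points passed an adjusted p of 0.05, as did 7 genes on the left, 2 red points in the middle, and 7 red and 10 blue points on the right.

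The third comparison set whole-day against half-day stages. Averaged over both labels, 9 of the 10 genes were higher at whole-day stages and Msx2 was lower, whereas 8.95% of all genes were called higher and 6.99% lower. The median difference of the 10 genes was 0.44 on the log2 scale, against -0.01 for all genes. The largest was that of Lhx6, 0.74 ± 0.05 (SE, adjusted p = 2.29e-07), and those of Msx1, Lhx8, Runx2 and Barx1 lay between 0.49 and 0.52. Prrx1 (0.38 ± 0.05 SE), Prrx2 (0.36 ± 0.06 SE) and Pax9 (0.23 ± 0.03 SE) were lower in the order, and Twist1 was last of the 9 (0.17 ± 0.05 SE, adjusted p = 0.0313). Msx2 was at -0.26 ± 0.07 (SE, adjusted p = 0.0172). The Twist1 call was lost on leaving out the embryo of ED15.0, ED15.5, ED17.0, ED17.5 or ED18.0 (adjusted p from 0.0711 to 0.162), and that of Msx2 without ED17.5 (adjusted p = 0.174). An alternative fit held a spline of stage and a stage set term that both labels shared, in place of a line and a term for each label. In it Msx2 (adjusted p = 0.115), Pax9 (0.207) and Twist1 (0.412) no longer passed. The spline was not tested apart from the shared terms.

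In the libraries labelled upper Lhx6 stood at 224.8, 213.1, 206.8 and 241.8 CPM at the half-day stages and at 323.2, 318.4, 335.7 and 345.3 CPM at the whole-day stages. In those labelled lower it stood at 195.7, 176.6, 133.9 and 112.3 CPM against 288.6, 307.9, 259.2 and 217.5 CPM. The sets did not overlap in either label, and Lhx6 was the only one of the 10 genes of which this held. Its difference was 0.56 ± 0.07 (SE, adjusted p = 0.00015) in the label upper and 0.92 ± 0.07 (SE, adjusted p = 1.8e-06) in the label lower. Dlx1, a homeobox gene of the arch mesenchyme, was the gene most like Lhx6 across the libraries (r = 0.95, n = 16). Sets without overlap were also found for Runx2 and Pax9 in the label upper and for Barx1 and Prrx2 in the label lower, where 9.55% and 7.51% of all genes had such sets in either direction.

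Counted step by step, 7 of the 10 genes were higher at the whole-day stage in all 7 steps between neighbouring stages of the label upper, as were 12.5% of all genes. Pax9 and Twist1 went the other way at all 7 steps there, as did 10.1% of all genes, and Msx2 followed neither pattern. In the label lower 9 of the 10 genes were higher at the whole-day stage in all 7 steps (10.9% of all genes), and Msx2 was higher at the half-day stage in all 7 (8.64% of all genes). Tested inside each label, 7 genes were called higher at whole-day stages in the label upper (5.89% of all genes) and 0 lower (4.30% of all genes) by edgeR. At an unadjusted p under 0.05 there were 2 lower (1771 of all 16287 genes), and DESeq2 called 0 lower (909 of all genes). In the label lower 9 were called higher (3.83%) and 1 lower (3.11%). For Prrx2 in the label upper (0.29 ± 0.08 SE, adjusted p = 0.026), the call was lost without the embryo of ED14.5, ED15.0, ED16.0 or ED16.5 (adjusted p from 0.0682 to 0.0932). The call of Prrx1 in the label upper was lost without ED17.5 (adjusted p = 0.0569), and that of Msx1 in the label lower without ED15.0 (adjusted p = 0.0514).

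Pax9 and Twist1 were the 2 genes whose alternation differed between the labels by edgeR's test of the difference, where 0.270% of all genes were called in their direction and 0.540% in the other. Pax9 stood at 137.7, 143.0, 142.4 and 144.1 CPM at half-day and at 131.7, 130.5, 135.6 and 134.5 CPM at whole-day stages in the label upper. In the label lower it stood at 116.0, 90.6, 81.3 and 66.0 CPM against 139.1, 132.7, 109.7 and 104.3 CPM. Half-day stages were thus above whole-day stages without overlap in the label upper, and below the neighbouring whole-day stages at every step in the label lower. The Pax9 contrast was -0.10 ± 0.05 (SE, adjusted p = 0.198) in the label upper and 0.57 ± 0.05 (SE, adjusted p = 5.76e-06) in the label lower, and the difference of the contrasts was -0.67 ± 0.07 (SE, adjusted p = 0.000849). Twist1 had contrasts of -0.16 ± 0.07 (SE, adjusted p = 0.175) and 0.50 ± 0.07 (SE, adjusted p = 0.000581), which differed by -0.66 ± 0.10 (SE, adjusted p = 0.00919). The Twist1 difference was not called without the embryo of ED16.0 (adjusted p = 0.0583) or of ED17.5 (adjusted p = 0.0837). With the embryo as a block, neither passed: Pax9 was at -0.56 ± 0.17 (SE, adjusted p = 0.654) and Twist1 at -0.52 ± 0.23 (SE, adjusted p = 1). The block fit also left out the separate stage slope of each label that the main fit held, so the block alone was not tested. DESeq2 called 4 genes in the negative direction, adding Lhx6 and Lhx8 (both -0.36 ± 0.10 SE, adjusted p = 0.0215 and 0.017). Of all 16287 genes, DESeq2 called 114 in this direction and 205 in the other.

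Across the same 16 libraries Pax9 and Twist1 had r = 0.95, and Twist1 had Pax9 as its nearest gene of the 12478 compared. Inside the labels r was 0.70 in the label upper and 0.97 in the label lower. These correlations describe the values given above and add no separate evidence. The 250 bases before the Twist1 start in RefSeq (GRCm38.p6, chr12:33957421-33957670, plus strand, 62.4% G or C) are shown for the member with a TATAAA box, in capitals with its CCAAT box:
Twist1 promoter: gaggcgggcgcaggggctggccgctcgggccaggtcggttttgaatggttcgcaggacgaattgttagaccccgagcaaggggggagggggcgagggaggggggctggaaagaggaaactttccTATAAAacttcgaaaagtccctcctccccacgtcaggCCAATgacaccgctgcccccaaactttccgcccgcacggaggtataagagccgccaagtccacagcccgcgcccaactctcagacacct
TATAAA on either strand was present in 12.4% of all windows, and Twist1 was the only one of the 10 genes with it. The helix-loop-helix site CATCTG was in 0 of the 10 windows and in 14.4% of all.

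The levels of other gene lists moved with the stage sets, where 8.95% of all genes were called higher at whole-day stages and 6.99% lower. Dental epithelium genes were lower at whole-day stages in 9 of 10 cases (median -0.32), and their summed level was 5196 to 6547 CPM at half-day against 4075 to 5022 CPM at whole-day stages in the label upper. In the label lower the sums were 5676 to 6450 CPM against 4911 to 5366 CPM, so that the sets did not overlap in either label. General mesenchyme genes were higher in 5 of 10 cases and lower in 0 by edgeR's test (1 lower at an unadjusted p under 0.05, 0 by DESeq2; median 0.19), with sums of 7097 to 8239 CPM against 7689 to 10331 CPM in the label upper. None of the epithelial or mesenchymal genes on these lists was at 0 in all libraries of a label. Relative to the geometric mean of the 10 general mesenchyme genes, an alternative added after seeing the data, 2 of the 10 transcription factors (Lhx6 and Runx2) were higher at whole-day stages in all 7 steps of the label upper, as were 3.79% of all genes. In the label lower 9 of the 10 still were (3.70% of all genes). The median difference between the sets on that relative scale was 0.04 in the label upper and 0.27 in the label lower. The median of the label upper covers both directions, with Lhx6 at 0.36 and Runx2 at 0.29. Pax9 (-0.31) and Twist1 (-0.33) were higher there at half-day stages in all 7 steps, a direction for which the share of all genes was not computed. How far the share of mesenchyme enters the remaining differences was not tested.

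Among 10 tested relatives of the 10 genes, 4 were higher and 2 lower at whole-day stages (median 0.09), against 8.95% and 6.99% of all genes. Alx1, a paired-type homeobox gene of the face, was higher by 2.41 ± 0.32 (SE, adjusted p = 0.00012), at levels of 3.31 CPM or less, and Barx2 was at -0.43 ± 0.08 (SE, adjusted p = 0.00219). Of 13 protein partners 3 were higher and 0 lower by edgeR's test (1 lower at an unadjusted p under 0.05, 1 by DESeq2; median -0.01). Ldb2, a cofactor that bridges LIM-homeodomain proteins, was at 0.44 ± 0.07 (SE, adjusted p = 0.000525) and Cbfb, the partner of Runx2, at 0.10 ± 0.03 (SE, adjusted p = 0.0189). Of 12 signals and response genes 4 were higher and 2 lower (median 0.00), with Dkk1 at 0.37 ± 0.11 (SE, adjusted p = 0.0376) and Tnc at -0.26 ± 0.06 (SE, adjusted p = 0.01). Among 9 bone genes Sp7, a target of Runx2, was the single call (0.47 ± 0.09 SE, adjusted p = 0.00206; list median 0.07). Of 10 enamel knot genes 4 were lower (median -0.19), and of 6 cartilage genes 2 were higher and 2 lower (median 0.15). edgeR called 0 of 5 endothelial genes (median -0.01; 0 at an unadjusted p under 0.05, 0 by DESeq2) and 0 of 6 muscle genes (median 0.42; 1 at an unadjusted p under 0.05, 0 by DESeq2).

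**Figure D4:**
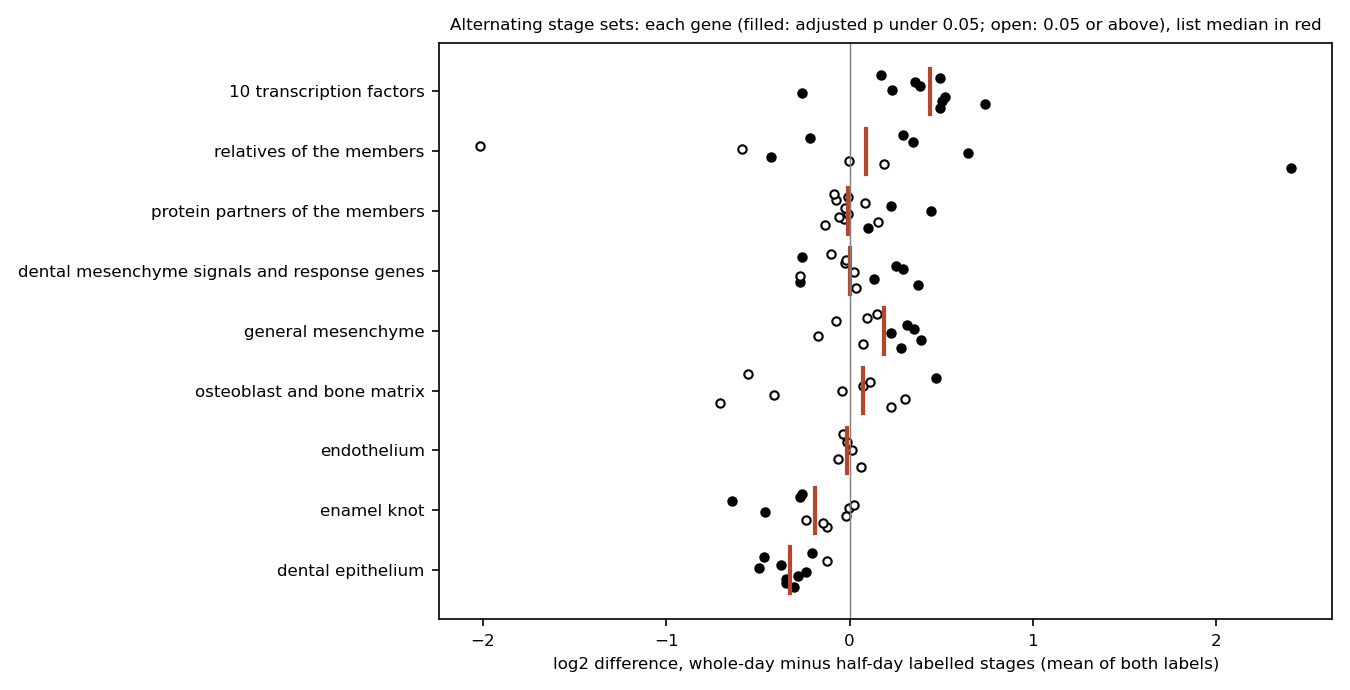
Fitted whole-day minus half-day difference (x axis, log2, mean of both labels) of each gene in 9 lists, filled where the adjusted p was under 0.05, with the list's median as a red bar. The median lay at 0.44 for the 10 transcription factors, 0.19 for general mesenchyme and -0.32 for dental epithelium.

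Within one stage set, the values of some genes can be read from one label on into the other. At half-day stages Msx2 stood at 25.5, 39.2, 48.4 and 71.5 CPM in the label upper and then at 122.7, 138.4, 169.2 and 238.1 CPM in the label lower, each value above the last. Lhx8 at the same stages stood at 134.9, 113.9, 99.4 and 102.3 CPM and then at 72.4, 54.0, 49.97 and 39.7 CPM. Prrx1 stood at 591.3, 460.0, 361.7 and 295.0 CPM and then at 236.6, 184.4, 189.6 and 152.5 CPM. The first half-day library of the label lower was closer on the log2 scale to the last half-day library of the label upper than to the library of its own stage for 6 of the 10 genes and for 62.7% of the 16150 genes with reads in all 3 libraries, so that the members were near the background. For the first whole-day library of the label lower, the same held for 9 of the 10 against ED18.0 of the label upper, and for 54.4% of 16176 genes. This is a description of the order of the values, and whether it goes with tooth label, flow cell or stage cannot be told apart.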

How the data were processed

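Poly(A) RNA of first molar germs was, per the labels' protocols, sequenced as 100 bp pairs. As deposited by the authors, there was 1 table of raw read counts per gene for each library, 23337 genes and 5 summary lines. Per the submitters' processing notes, TopHat2 2.0.6 with Bowtie2 2.0.2 and HTSeq 0.5.3p9 were used with build mm10. Not given in the sources used here are the annotation, the strand setting and the counting unit. Reads outside genes made up 11.8% to 14.1% of the counted lines and were left out of totals and tests.

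CPM were computed from each library's gene total. Genes reaching 0.269 CPM (10 reads at the median depth) in at least 2 libraries were tested, 16287 in all, with edgeR 4.0.16 in R 4.3.3 (TMM, quasi-likelihood test, Benjamini-Hochberg adjustment, threshold 0.05). The tooth model held a natural spline of stage with 3 degrees of freedom, and the alternation model a straight line for stage in each label. On simulated counts the fits recovered the direction of every changed gene, but the fit for a difference of the alternation between labels called only part of them. Those counts had the same dispersion for every gene and no lane or flow cell effect. How the fits do under such features of these data was therefore not tested. DESeq2 1.42.0 was an alternative, as were other scalings, no filter, leaving out each embryo, and stage set, lane or embryo terms. With 1 embryo per stage, scatter about the stage curve is the only error, and p-values measure that. The labels place upper and lower germs of a stage in 1 embryo, and same-numbered libraries deviated together (r from 0.12 to 0.28 over genes, 8 of 8 pairs over 0.1), which a shared stage would also give.

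The 10 genes and all lists were chosen with earlier results of these data known. All 10 are named, and of each other list at most the 2 highest and 2 lowest called genes in a comparison. Bmp4 falls outside that rule and was named after its value was seen. A called protein partner is not reported here. Lists of relatives, protein partners, signals, general mesenchyme, dental epithelium, enamel knot, bone, cartilage, endothelium and muscle were read by counts and medians. Sequences are RefSeq windows matched by symbol for 10 of 10 genes, of which 2 lay clear of the gene model.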

Additional observations from a re-analysis of the deposited data

Results flagged for a closer look

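Pax9 and Twist1 were marked because their whole-day minus half-day contrast differed between the tooth labels by edgeR's test of that difference, at -0.67 for Pax9 and -0.66 for Twist1 on the log2 scale. Both contrasts were positive in the libraries labelled lower and negative in those labelled upper, where neither passed the test on its own. Both differences fell short of the threshold with the embryo as a block, in a fit that also left out the separate stage slope of each label. In the 20 groups of 8 libraries (10 genes, 2 labels), 0 had a single library far from the rest by Dixon's criterion, which chance alone would give in about 1 of 20.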

How the results depend on the processing

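Of 1180 recomputed values of the 10 genes under the alternatives, 1083 kept direction and side of the threshold, 34 newly passed, 28 no longer passed and 35 changed sign. The cause of these changes was not tested, beyond what each setting leaves out.

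The tooth label counts were stable: leaving out each embryo gave 6 to 7 higher and 1 lower of the 10 genes. The other counts were less so, positive before negative here, for all genes. DESeq2 called 1161 and 890 slopes in the label upper (2 of the 10 genes positive), 1014 and 785 in the label lower (1 positive), 324 and 290 slope differences, and 205 and 114 alternation differences between labels (4 of the 10 negative). The stage set as a term gave 1251 and 901 upper slopes (3 and 4 of the 10), 1115 and 674 lower slopes (1 and 7) and 514 and 434 slope differences (5 positive). The lane as a term, added after seeing the data, gave 1 and 1 upper slopes (0 and 0 of the 10), 16 and 3 lower slopes, and 0 and 2 slope differences. Without the 2 libraries labelled lower with the lowest Xist, also added afterwards, there were 1 and 0 lower slopes and 15 and 18 slope differences, while the alternation kept 9 higher and 1 lower gene. A spline of stage, with the spline and the stage set term shared by the labels, left 0 of the 10 genes lower in the alternation. The replicate block, with the embryo as labelled pairing the libraries, gave 279 and 196 slope differences (2 of the 10 positive) and 0 and 0 alternation differences (0 of the 10). Its fit for the alternation differences also left out the separate stage slope of each label. The block changed no call of the 10 genes beyond the 5 given in the report.

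Leaving out 1 embryo at a time gave 137 to 747 and 55 to 654 upper slopes (0 to 1 of the 10 negative), 30 to 473 and 4 to 285 lower slopes, 13 to 101 and 9 to 87 slope differences, 861 to 1282 and 674 to 1059 alternating genes (0 to 1 of the 10 negative), and 5 to 88 and 5 to 63 alternation differences (0 to 1 and 1 to 3 of the 10).

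Sign changes fell on values that did not pass in either fit. With the lane as a term they were, for upper slopes, Msx1 0.10, Pax9 -0.026, Lhx8 0.035, Prrx2 0.11 and Twist1 -0.013. For lower slopes they were Msx1 0.090, Pax9 0.044, Lhx6 0.22, Barx1 0.013, Runx2 0.0042 and Prrx2 0.019, and for slope differences Msx1 0.010, Pax9 -0.070, Prrx1 0.037 and Prrx2 0.088. The Runx2 alternation difference was 0.059 with the lane term and 0.075 with the replicate block. Without the lowest-Xist libraries the lower slopes of Msx1, Runx2 and Prrx2 were 0.048, 0.0048 and 0.059. Leaving out 1 embryo moved the upper slope of Pax9 between -0.0051 and 0.017, the lower slope of Prrx2 between -0.099 and 0.022, and the upper alternation of Msx2 between -0.12 and 0.056. The alternation difference between labels moved between -0.067 and 0.20 for Msx1, -0.10 and 0.018 for Prrx1, and -0.063 and 0.043 for Runx2.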
